A study of Mus musculus with 23 samples.

Results

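The adipocyte genes described here are 9 genes whose products mark or serve fat cells: Adipoq, Lep, Retn and Cfd, which encode secreted proteins, Plin1, Plin4 and Cidec, which encode proteins of the lipid droplet, and Fabp4 and Lpl, which act on fatty acids. They were taken by symbol from the 55401 genes of the count table, each symbol matched 1 gene identifier, and all 9 were among the 24440 genes that passed the filter on low counts. The rule names the genes and uses no measured value, but the genes were chosen with earlier results of these data known. The libraries are 23 bulk RNA libraries from sections of tumours grown under the skin of the flank in male C57/BL6 mice, 8 to 10 weeks old, from TC2Ras cells. TC2Ras is a line made from the mouse prostate adenocarcinoma line TRAMP-C2 by a lentivirus carrying activated H-ras. Mice received plasmid by sonoporation, which lets DNA into cells with ultrasound and microbubbles, at 10 µg per muscle in the tibialis anterior. The plasmid was pTSTA-ctrl, the empty vector (EV), or pTSTA-IL27pepL (IL27v), which encodes the cytokine IL-27 joined to a short peptide. Muscle rather than tumour was thus the site of delivery. Tumours were then exposed ex vivo to media, cabozantinib (a kinase inhibitor), docetaxel (a taxane that stabilises microtubules), anti-PD-L1 (an antibody to an immune checkpoint ligand), cabozantinib + IL-27, or IL-27, at doses and for times not given in the sources used here. The 12 groups held 2 libraries each, except IL27v with IL-27, which held 1, so that 12 libraries were EV and 11 were IL27v. Nothing in the labels says that the replicates came from separate animals.

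White fat cells hold 1 large lipid droplet of triglyceride. Lipoprotein lipase (Lpl), which sits on the wall of capillaries, frees fatty acids from circulating lipoproteins, and fatty acid binding protein 4 (Fabp4) carries them inside the cell. Perilipin 1 (Plin1) coats the droplet and controls access of lipases to it, while Cidec promotes droplet fusion. Adiponectin (Adipoq) and leptin (Lep) are hormones of fat cells, resistin (Retn) is a further secreted product of mouse fat, and adipsin (Cfd) is complement factor D, the protease that starts the alternative complement pathway. Adipoq, Lep, Retn, Plin1 and Cidec are largely restricted to fat cells in adult mice. Fabp4 is also made by capillary endothelium and macrophages, Lpl by macrophages and muscle, and Cfd and Plin4 by several tissues. Transcription of the fat cell program is driven by PPARG, which binds DNA with an RXR partner, and by the C/EBP proteins. In a bulk library, fewer cells of a type and less RNA per cell cannot be told apart.

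The 250 bases before the start of 4 of these genes are shown because they carry the C/EBP letters or, for Adipoq, none of the letters searched. They come from RefSeq on build GRCm38.p6, which held promoters for 7 of the 9 genes. Capitals mark TTGCNNAA, the C/EBP motif, read on both strands of all 250 bases.
Lep, chr6:29059971-29060220, plus strand: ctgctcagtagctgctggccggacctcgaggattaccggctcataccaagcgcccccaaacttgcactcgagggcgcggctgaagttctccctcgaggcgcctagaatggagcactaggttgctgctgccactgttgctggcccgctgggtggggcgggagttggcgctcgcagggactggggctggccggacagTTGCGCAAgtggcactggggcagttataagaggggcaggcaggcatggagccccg
Plin1, chr7:79732777-79733026, minus strand: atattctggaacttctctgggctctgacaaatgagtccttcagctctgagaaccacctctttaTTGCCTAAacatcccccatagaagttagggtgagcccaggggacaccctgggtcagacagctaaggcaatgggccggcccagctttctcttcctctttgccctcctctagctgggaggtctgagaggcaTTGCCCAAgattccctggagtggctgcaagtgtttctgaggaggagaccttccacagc
Cidec, second start, chr6:113434765-113435014, minus strand: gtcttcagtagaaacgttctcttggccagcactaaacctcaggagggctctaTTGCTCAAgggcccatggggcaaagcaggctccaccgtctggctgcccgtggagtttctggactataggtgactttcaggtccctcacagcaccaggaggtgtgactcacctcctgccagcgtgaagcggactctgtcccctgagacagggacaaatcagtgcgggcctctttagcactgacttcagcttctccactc
Adipoq, chr16:23146286-23146535, plus strand: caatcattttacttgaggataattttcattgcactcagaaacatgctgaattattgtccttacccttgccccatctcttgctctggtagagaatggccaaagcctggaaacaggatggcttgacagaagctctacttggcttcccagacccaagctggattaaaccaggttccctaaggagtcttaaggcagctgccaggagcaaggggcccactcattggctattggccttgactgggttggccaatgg
Lep held TTGCGCAA, the palindromic form of the C/EBP motif, from -55 to -48 relative to the start. This form, which is contained in TTGCNNAA, occurred in 0.164% of 32841 RefSeq mouse promoters of the same length, and TTGCNNAA in 9.57%. Plin1 held TTGCNNAA from -187 to -180 and from -58 to -51, and Cidec from -198 to -191 of its second start. The nuclear receptor letters AGGTCA (14.0% of promoters) and the TATA letters TATAAA (12.4%) were found in none of the 8 windows of the 7 genes. A direct repeat of AGGTCA with 1 base between the copies, which PPARG and RXR bind, was found in none exactly. With up to 3 mismatches it was found at Cfd, Retn and the first start of Cidec, as in 21.3% of promoters. These matches describe the letters in these windows only.

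Levels are counts relative to the library total (CPM) after TMM scaling; library totals ran from 47641781 to 83088346 counts, so that 1 CPM stood for 36.3 to 86.5 counts. Beside the vector and ex vivo labels the libraries fell into sets. In set A, 9 EV libraries, 13 skeletal muscle genes together reached no more than 18.4 CPM. In set B, the neutrophil granule gene Ngp lay between 14.1 and 18.8 CPM, and the muscle sum between 482.8 and 711 CPM; it holds both IL27v media libraries, both EV cabozantinib + IL-27 libraries and EV anti-PD-L1 2. In set C, 8 IL27v libraries, Ngp was at 0 and the muscle sum was 618 to 974 CPM. IL27v docetaxel 1 stood apart, with 27.2% of its counts in 1 gene, CT010467.1. It also had the lowest total and the lowest TMM factor, 0.761, which raises its CPM. In no ex vivo condition did an EV and an IL27v library share a set, so vector and set cannot be told apart. Under IL27v no library with an agent shared a set with the media libraries. Agent and set therefore cannot be told apart in the IL27v part of any difference from media. Genes listed as tumour cell markers, among them Krt8 and Mki67, summed to 173 to 393 CPM under EV and 173 to 398 CPM under IL27v.

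The 9 genes lay at very different levels. Per kilobase of exon, Fabp4 had the highest median over the 23 libraries, 6.60 CPM per kb, followed by Lpl at 4.20, Cfd at 1.61, Plin4 at 0.806, Adipoq at 0.484, Cidec at 0.144 and Plin1 at 0.0511 CPM per kb. The medians of Lep and Retn were 0. The ranges over libraries of each pair of neighbours in this order overlapped. Of the genes largely restricted to fat cells, Lep was at 0 counts in 14 of the 23 libraries, Retn in 12, Cidec in 6, Plin1 in 5 and Adipoq in 2. Fabp4, Lpl, Cfd and Plin4, which other cells also make, were detected in all 23.

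**Figure D1:**
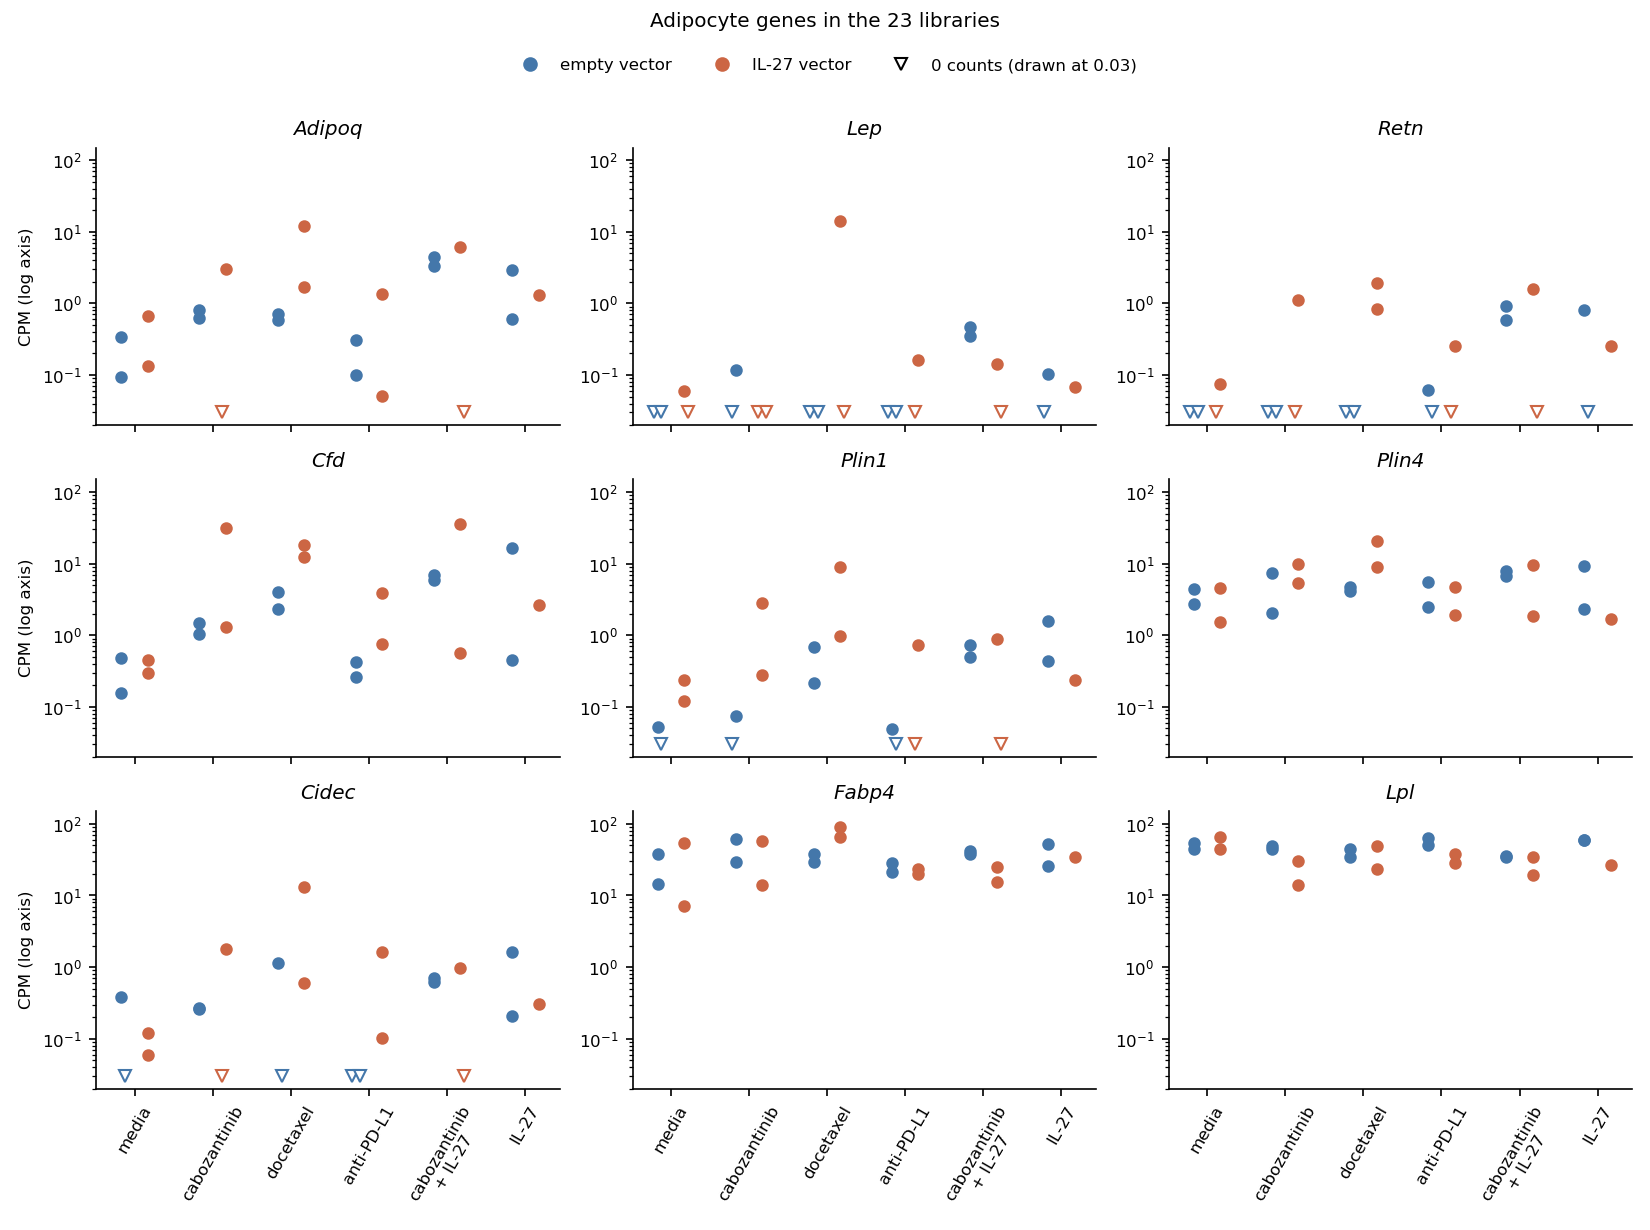
Level of each adipocyte gene in every library. The vertical axis is TMM-scaled CPM on a log axis and the horizontal axis is the ex vivo condition; each point is 1 library, coloured by vector, and open triangles at the bottom are libraries with 0 counts. Lep reached 14.1 CPM in 1 library and at most 0.464 in the others, while Lpl stayed between 13.8 and 64.9.

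Adiponectin transcripts (Adipoq, chromosome 16, 23146536 to 23158028, plus strand, GRCm38) ranged from 0 to 11.9 CPM. Under EV, Adipoq was at 0.343 and 0.0925 CPM in media, 0.635 and 0.800 with cabozantinib, 0.580 and 0.713 with docetaxel, 0.308 and 0.0997 with anti-PD-L1, 3.36 and 4.38 with cabozantinib + IL-27, and 2.88 and 0.614 with IL-27. Under IL27v it was at 0.669 and 0.134 CPM in media, 0 and 3.07 with cabozantinib, 11.9 and 1.71 with docetaxel, 0.0517 and 1.36 with anti-PD-L1, 6.19 and 0 with cabozantinib + IL-27, and 1.31 in the only IL-27 library. The EV replicates lay close together with cabozantinib, docetaxel and cabozantinib + IL-27, while the IL27v replicates were far apart in each of the 5 conditions that had 2. Against the limit of 3 counts in the library at 0, IL27v cabozantinib + IL-27 1 was at least 134-fold above its replicate and IL27v cabozantinib 2 at least 73.0-fold above its own. The vector ranges overlapped, from 0.0925 to 4.38 CPM under EV and from 0 to 11.9 under IL27v. The fitted vector difference was 1.07 ± 0.81 on the log2 scale (SE; edgeR adjusted p = 0.68). It was -0.55 without IL27v cabozantinib 2 and -0.72 without IL27v cabozantinib + IL-27 1. Each of these fits left a group at 0 Adipoq counts, so both values depend on the prior count of the model.

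Leptin transcripts (Lep, chromosome 6, 29060220 to 29073877, plus strand) came almost entirely from 1 library. Lep was at 14.1 CPM in IL27v docetaxel 1 and at 0 in its replicate, and was thus at least 294-fold higher there, against the limit of 3 counts. It was at 0 in 14 of the 23 libraries. The highest of the others were EV cabozantinib + IL-27 1 and 2, at 0.349 and 0.464 CPM. With groups at 0 under both vectors the model gave no usable test of Lep between the vectors.

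Resistin transcripts (Retn, chromosome 8, 3655770 to 3660110, plus strand) were at 0 in 12 libraries and reached 1.93 CPM in IL27v docetaxel 1. Under EV, Retn was detected in 4 of 12 libraries: 0.582 and 0.913 CPM with cabozantinib + IL-27, 0.801 in IL-27 1 and 0.0615 in anti-PD-L1 1. Under IL27v it was detected in 7 of 11, with 1.60 CPM in cabozantinib + IL-27 1, 1.11 in cabozantinib 2 and 0.832 in docetaxel 2. The fitted vector difference of 3.94 ± 1.35 (log2, SE; unadjusted p = 0.011, edgeR adjusted p = 0.15) depends on the prior count, because 3 EV groups were at 0. It was 2.47 without IL27v cabozantinib + IL-27 1 and 5.22 without EV IL-27 1, fits that each left a further group at 0.

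Adipsin transcripts (Cfd, chromosome 10, 79890853 to 79892655, plus strand) had the widest spread between replicates of the 9 genes, 1.72 as an SD of log2 level within groups, where the median over all genes tested was 0.36. Under EV, Cfd was at 0.158 and 0.474 CPM in media, 1.49 and 1.04 with cabozantinib, 3.97 and 2.35 with docetaxel, 0.258 and 0.427 with anti-PD-L1, 6.97 and 5.96 with cabozantinib + IL-27, and 16.7 and 0.444 with IL-27. Under IL27v it was at 0.446 and 0.299 CPM in media, 1.30 and 31.5 with cabozantinib, 18.4 and 12.3 with docetaxel, 0.762 and 3.85 with anti-PD-L1, 36.1 and 0.569 with cabozantinib + IL-27, and 2.62 with IL-27. Among EV libraries the lowest Cfd levels were those of media, anti-PD-L1 and IL-27 2, and in 3 groups 1 replicate stood far above the other: IL27v cabozantinib + IL-27 1 was 63.4-fold above its replicate, EV IL-27 1 was 37.6-fold and IL27v cabozantinib 2 was 24.2-fold above theirs. The vectors overlapped, with 7 of 11 IL27v libraries above the EV median and 3 above every EV library. The fitted vector difference was 1.46 ± 0.63 (log2, SE; unadjusted p = 0.033, edgeR adjusted p = 0.28). Leaving out 1 library at a time moved it between 0.62, without IL27v cabozantinib + IL-27 1, and 2.13, without EV IL-27 1.

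Among the droplet proteins, Plin1 (chromosome 7, 79720218 to 79732903, minus strand) ran from 0 to 1.57 CPM under EV, with a median of 0.145, and from 0 to 8.91 under IL27v, with a median of 0.280. It was highest in IL27v docetaxel 1, then IL27v cabozantinib 2 at 2.85 CPM and EV IL-27 1 at 1.57, and it was at 0 in 5 libraries of both vectors. The fitted vector difference was 2.12 ± 0.85 (log2, SE; unadjusted p = 0.024, edgeR adjusted p = 0.23), and 0.80 without IL27v cabozantinib + IL-27 1. Cidec (chromosome 6, 113424634 to 113435760, minus strand) reached 13.05 CPM in IL27v docetaxel 1, 22.1-fold above its replicate, and at most 1.81 CPM elsewhere. It was at 0 in 6 libraries, including both EV anti-PD-L1 libraries, and its fitted vector difference was 1.86 ± 1.09 (edgeR adjusted p = 0.50). That difference was 0.37 without IL27v cabozantinib 2 and 3.24 without EV docetaxel 1. These fits, like that of Plin1 without IL27v cabozantinib + IL-27 1, left a group at 0 counts, so their values depend on the prior count. So does the main Cidec value, with EV anti-PD-L1 at 0. Plin4 (chromosome 17, 56100591 to 56109803, minus strand), a perilipin that is also found in muscle, was detected in every library, at 2.03 to 9.32 CPM under EV and 1.51 to 20.8 under IL27v. Plin4 was also highest in IL27v docetaxel 1, and its vector difference was -0.05 ± 0.36 (edgeR adjusted p = 1.0).

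Fabp4 (chromosome 3, 10204088 to 10208576, minus strand) was detected throughout, at 14.3 to 60.7 CPM under EV (mean 34.9 ± 12.99, SD, n = 12) and 7.24 to 89.95 under IL27v (37.0 ± 26.2, n = 11). The 3 highest libraries were IL27v docetaxel 1 at 89.95 CPM, IL27v docetaxel 2 at 65.0 and EV cabozantinib 1 at 60.7. Its vector difference was -0.04 ± 0.31 (log2, SE; edgeR adjusted p = 1.0), so no difference was detectable beyond the spread between replicates. The lowest library was IL27v media 2, at 7.24 CPM against 54.6 in its replicate. In that library 8 endothelial genes summed to 21.5 CPM, against 97.7 to 313 CPM in the other 22 libraries, and Emcn, an endothelial surface mucin, was also lowest there, at 1.24 CPM. The part of endothelial RNA in the Fabp4 values was not tested.

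Lpl (chromosome 8, 68880491 to 68907448, plus strand) was the steadiest of the 9 genes, with a within-group SD of 0.41 on the log2 scale, and 1 of 3, with Plin4 and Fabp4, whose fitted vector difference was below 0. Under EV, Lpl was at 44.0 and 53.9 CPM in media, 49.7 and 44.3 with cabozantinib, 44.9 and 34.6 with docetaxel, 50.2 and 62.6 with anti-PD-L1, 35.3 and 34.3 with cabozantinib + IL-27, and 60.2 and 59.7 with IL-27. Under IL27v it was at 45.2 and 64.9 CPM in media, 13.8 and 30.3 with cabozantinib, 48.3 and 23.7 with docetaxel, 38.5 and 28.4 with anti-PD-L1, 34.0 and 19.3 with cabozantinib + IL-27, and 26.6 with IL-27. Of the 11 IL27v libraries 7 lay below every EV library and 1, media 2, lay above all of them. The fitted vector difference was -0.56 ± 0.17 (log2, SE; unadjusted p = 0.0045, edgeR adjusted p = 0.095). It was called without IL27v docetaxel 1 (-0.71, adjusted p = 0.041), without IL27v cabozantinib 2 (-0.67, adjusted p = 0.045) and by DESeq2 (-0.57, adjusted p = 0.022). By set, the lowest and highest Lpl levels were 34.6 and 60.2 CPM for A, 34.3 and 64.9 CPM for B, and 13.8 and 38.5 CPM for C, and the IL27v media libraries, which belong to set B, were the highest IL27v libraries beside docetaxel 1. With the sets as a term in the model the vector difference was 0.41 ± 0.48.

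**Figure D2:**
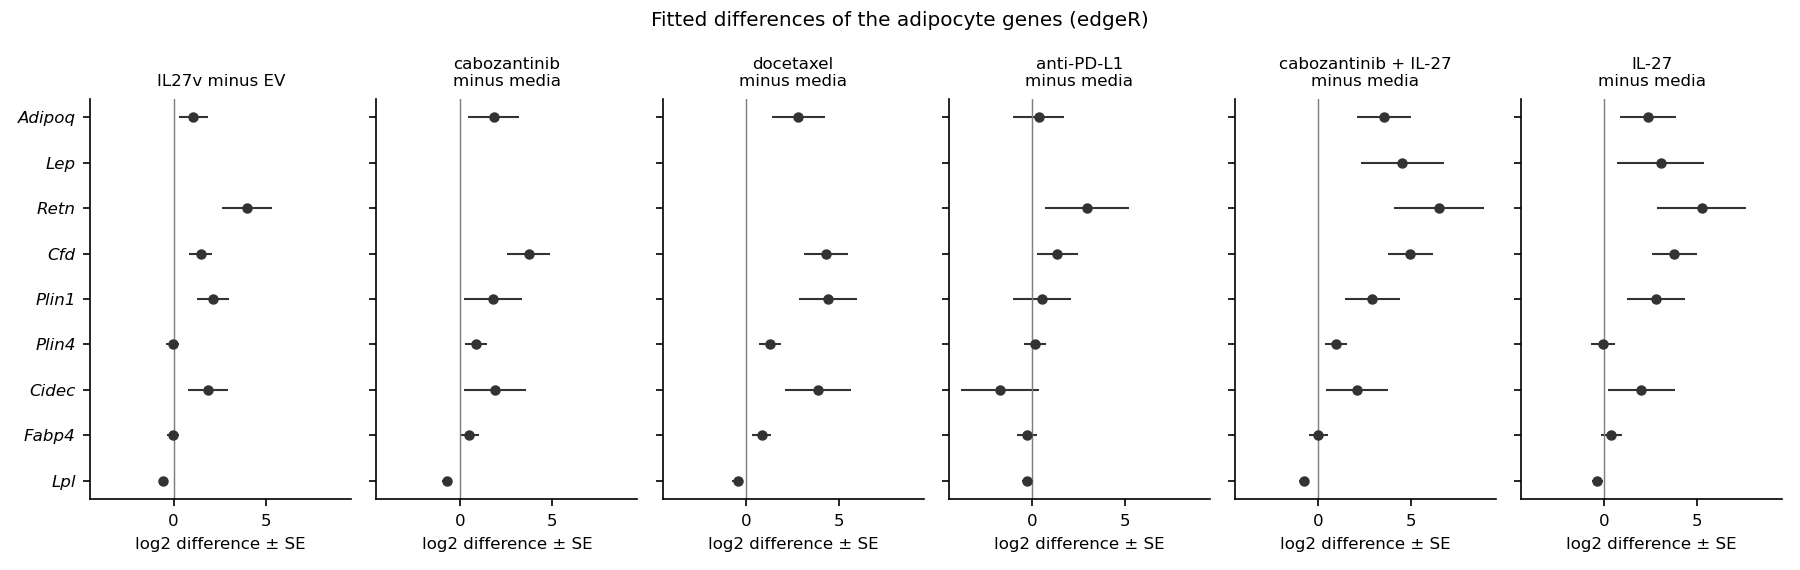
Fitted log2 differences of the 9 adipocyte genes, IL27v minus EV and each ex vivo agent minus media, with bars of 1 SE. Points are missing where a group at 0 left no usable test (Lep between the vectors and with cabozantinib, docetaxel and anti-PD-L1, and Retn with cabozantinib and docetaxel). Lpl is the only gene with a point below 0 in every panel, and its bars are the shortest.

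Between the vectors, none of the 9 genes was called at an edgeR adjusted p under 0.05, where 722 of all 24440 genes tested, 2.95%, were called (2.28% of all genes higher and 0.671% lower under IL27v). At an unadjusted p under 0.05 there were 4 of the 9 (Plin1, Cfd, Retn and Lpl), beside 3538 of all genes. DESeq2 called 1 of the 9, Lpl, where it called 1962 genes, 10.2% of those it gave an adjusted p. The median log2 difference of the 9 genes was 1.46, beside 0.01 over all genes tested. Over the 6 adipocyte genes with counts in every group it was 0.51, with 3 of the 6 above 0. In no gene did the EV and IL27v libraries separate.

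Compared with media, docetaxel changed none of the 9 genes at the edgeR threshold, where 437 genes, 1.79%, were (1.76% of all genes higher and 0.0286% lower). The 5 fat-restricted genes summed to 49.8 CPM in IL27v docetaxel 1, 4.13 in its replicate, and 2.41 and 0.928 in EV docetaxel, against 0.0925 to 1.03 in media. Cfd was higher in all 4 docetaxel libraries, 2.35 to 18.4 CPM, than in all 4 media libraries, 0.158 to 0.474 CPM. Its fitted difference was 4.33 ± 1.19 (log2, SE; unadjusted p = 0.0020, edgeR adjusted p = 0.074). Cfd was called without EV IL-27 1, without EV IL-27 2 or without IL27v cabozantinib + IL-27 2, with adjusted p down to 0.033. Plin1 differed by 4.42 ± 1.56 (adjusted p = 0.18), Cidec by 3.90 ± 1.78 (adjusted p = 0.31) and Plin4 by 1.30 ± 0.60 (adjusted p = 0.32), each with 3 of 4 docetaxel libraries above every media library. The Cidec difference was -0.25 without EV docetaxel 1, a fit that left EV docetaxel at 0 Cidec counts, so that value depends on the prior count. DESeq2 called 2 of the 9, Cfd and Plin1, where it called 1693 genes, 9.51%. The median over the 9 genes was 2.82, and 2.06 over the 6 with counts in every group, beside 0 over all genes. Within EV, where both conditions lie in set A, Cfd differed by 3.31 ± 1.61 and Plin1 by 4.06 ± 2.25 (adjusted p = 0.82 each). Keratinocyte markers moved with docetaxel as well: 11 of these genes summed to 702 and 1875 CPM in EV docetaxel and 5152 and 4620 in IL27v docetaxel, against 10.96 to 482 CPM in media. Of these 11 genes 3 were called. Of 8 endothelial markers 2, Tie1 and Egfl7, were called higher, with sums of 149.8 to 312.9 CPM in docetaxel and 21.5 to 187.5 in media. Neutrophil markers summed to 223.3 and 249.2 CPM in IL27v docetaxel, 0.522 and 1.01 in EV docetaxel and 0.693 to 53.1 in media, and none of the 7 was called. The part of skin, endothelial or neutrophil RNA in the docetaxel values was not tested.

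The remaining agents called almost no gene of any kind. With cabozantinib 0% of genes were called, although 2570 had an unadjusted p under 0.05 and DESeq2 called 295 (1.91%). Cfd lay above all media libraries in 4 of 4 cabozantinib libraries, at 1.04 to 31.5 CPM, with a fitted difference of 3.72 ± 1.16 (edgeR adjusted p = 0.36) and a call by DESeq2. It was 1.89 without IL27v cabozantinib 2. Lpl differed by -0.69 ± 0.28 (adjusted p = 0.44), with both IL27v libraries below and both EV libraries within the media range. In EV alone, where both conditions lie in set A, the Lpl difference was -0.06 ± 0.40.

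With cabozantinib + IL-27, 1 gene was called, 0.00409%, and none of the 9; DESeq2 called 63 genes (0.336%) and 1092 had an unadjusted p under 0.05. Cfd was above every media library in 4 of 4 libraries, at 0.569 to 36.1 CPM, with a difference of 4.98 ± 1.22 (unadjusted p = 0.00080, edgeR adjusted p = 0.88), and DESeq2 called it. Lpl was below every media library in 4 of 4, at 19.3 to 35.3 CPM, with a difference of -0.77 ± 0.28 (adjusted p = 0.88). Adipoq differed by 3.54 ± 1.47 (edgeR adjusted p = 0.88), with 3 of 4 libraries above every media library and 1 below. It was at 3.36 and 4.38 CPM in EV, against 0.343 and 0.0925 in EV media, and at 6.19 and 0 in IL27v. Without IL27v cabozantinib + IL-27 1 the Adipoq difference was -1.82. That fit left the IL27v group at 0 Adipoq counts, so the value depends on the prior count. Without IL27v cabozantinib + IL-27 1 the Cfd difference was 2.47. The EV media and EV cabozantinib + IL-27 libraries lie in sets A and B, and those of IL27v in sets B and C. Agent and set thus cannot be told apart under either vector.

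With IL-27 alone 0% of genes were called (2907 at an unadjusted p under 0.05 and 619, or 3.67%, by DESeq2, among them Cfd). The EV replicates differed: Adipoq was at 2.88 and 0.614 CPM, Cfd at 16.7 and 0.444, and Retn at 0.801 and 0. Cfd differed from media by 3.78 ± 1.21 (edgeR adjusted p = 0.25), and by 1.62 without EV IL-27 1, which leaves 1 library in that group. With anti-PD-L1 0% of genes were called, with 1429 at an unadjusted p under 0.05, none of them an adipocyte gene, and 105, or 0.56%, by DESeq2. No gene showed an interaction of vector and agent in edgeR (0% called, 1322 at an unadjusted p under 0.05, 635, or 3.57%, by DESeq2). Among the 6 adipocyte genes with counts in every group the lowest unadjusted p in that test was 0.21, for Lpl. The 5 agents share the media libraries, so their differences are not independent of each other.

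**Figure D3:**
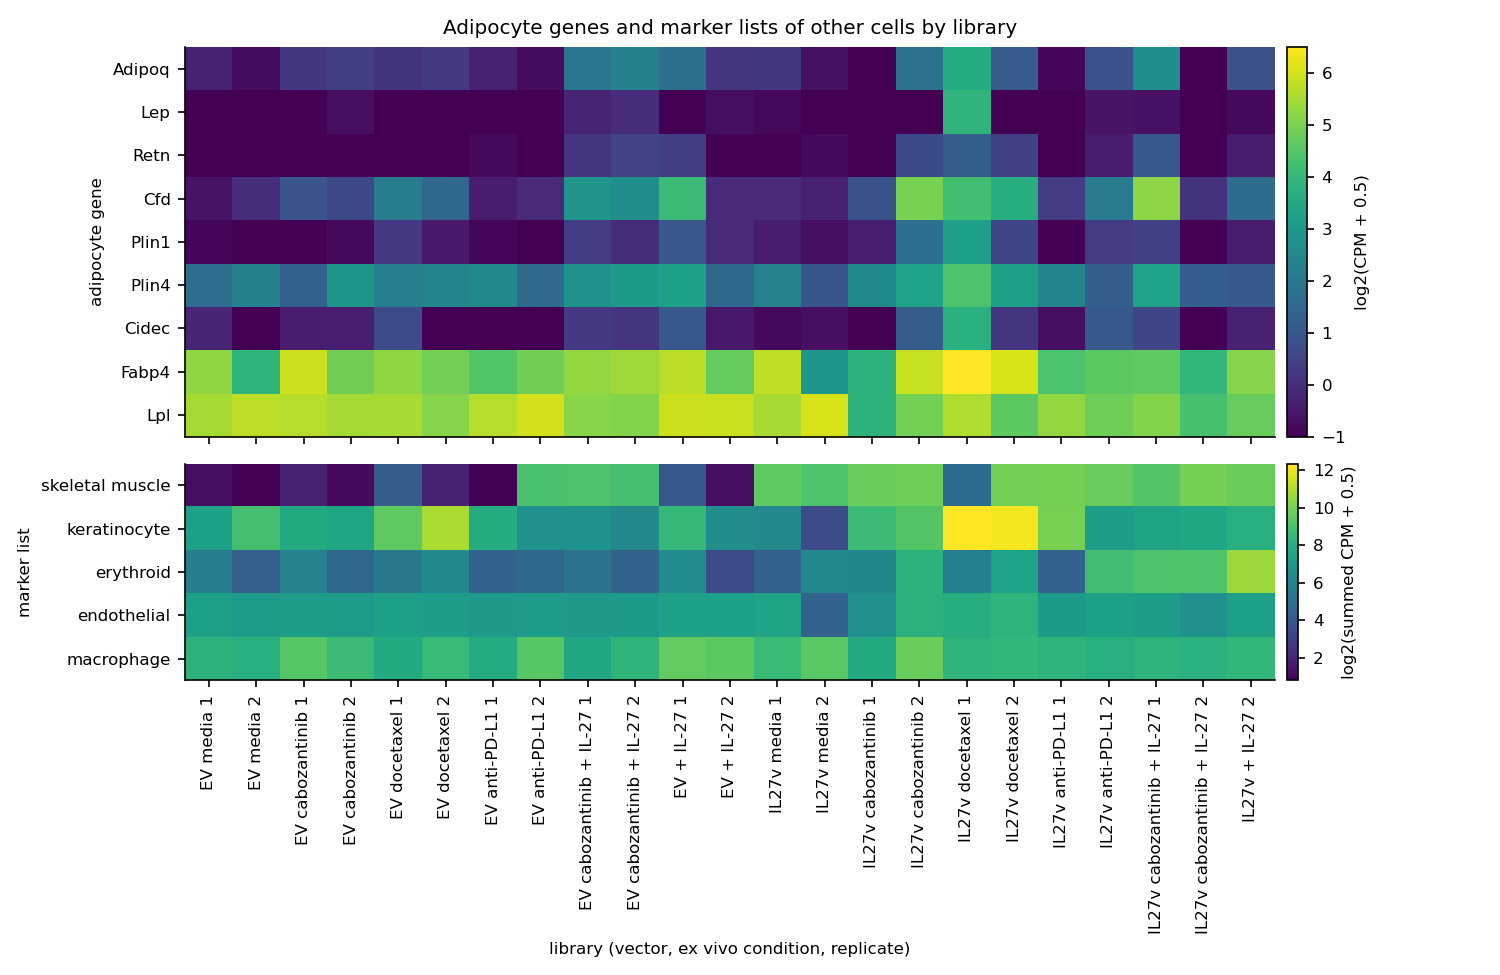
Heat maps of the 9 adipocyte genes (upper panel, log2 of CPM + 0.5) and of summed marker genes of other cells (lower panel, log2 of summed CPM + 0.5), 1 column per library. IL27v docetaxel 1 is brightest for 7 of the 9 adipocyte genes and for keratinocyte genes, and has the lowest muscle sum of the IL27v columns, 28.7 CPM.

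A single library, IL27v docetaxel 1, was the highest of the 23 for 7 of the 9 genes and among the top 3 for 8. It is also the library with the lowest total and 27.2% of its counts in 1 gene. Scaled by library total in place of TMM, it had 9.03 CPM of Adipoq in place of 11.9 and 10.7 of Lep in place of 14.1. The 5 genes largely restricted to fat cells summed to 49.8 CPM there, or 1807 counts, against 0 to 9.79 CPM in the other 22 libraries. Next came IL27v cabozantinib + IL-27 1 at 9.79 CPM, IL27v cabozantinib 2 at 8.83, EV cabozantinib + IL-27 2 at 6.87 and EV IL-27 1 at 6.85. The other replicate of each of these IL27v groups was low, with 0 CPM in IL27v cabozantinib + IL-27 2 and 0.280 in IL27v cabozantinib 1. Of all 24440 genes tested 10.1% were highest in this library. Of the further lists, 6 of 14 fat synthesis genes, 4 of 8 lipolysis genes and 4 of 9 adipogenic factors were highest there, and 1 of 10 droplet genes, 1 of 11 uptake genes, 1 of 10 other adipokines and none of the 8 preadipocyte or 6 thermogenic genes tested. Among them were Dgat2, which makes triglyceride, at 29.9 CPM, Lipe, hormone-sensitive lipase, at 22.3, Cebpa, a C/EBP factor of mature fat cells, at 12.7, and Pck1 at 7.03, examples chosen after their values were seen. The summed lipolysis genes were at 153.5 CPM there and highest in IL27v cabozantinib 2, at 157.1 CPM. Ucp1, the uncoupling protein of brown fat, was at most 0.0615 CPM in any library. The same library had 252.9 CPM of endothelial genes and the highest keratinocyte sum; its replicate had 312.9 and 4620 CPM of these, but a fat-restricted sum of 4.13 CPM.

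**Figure D4:**
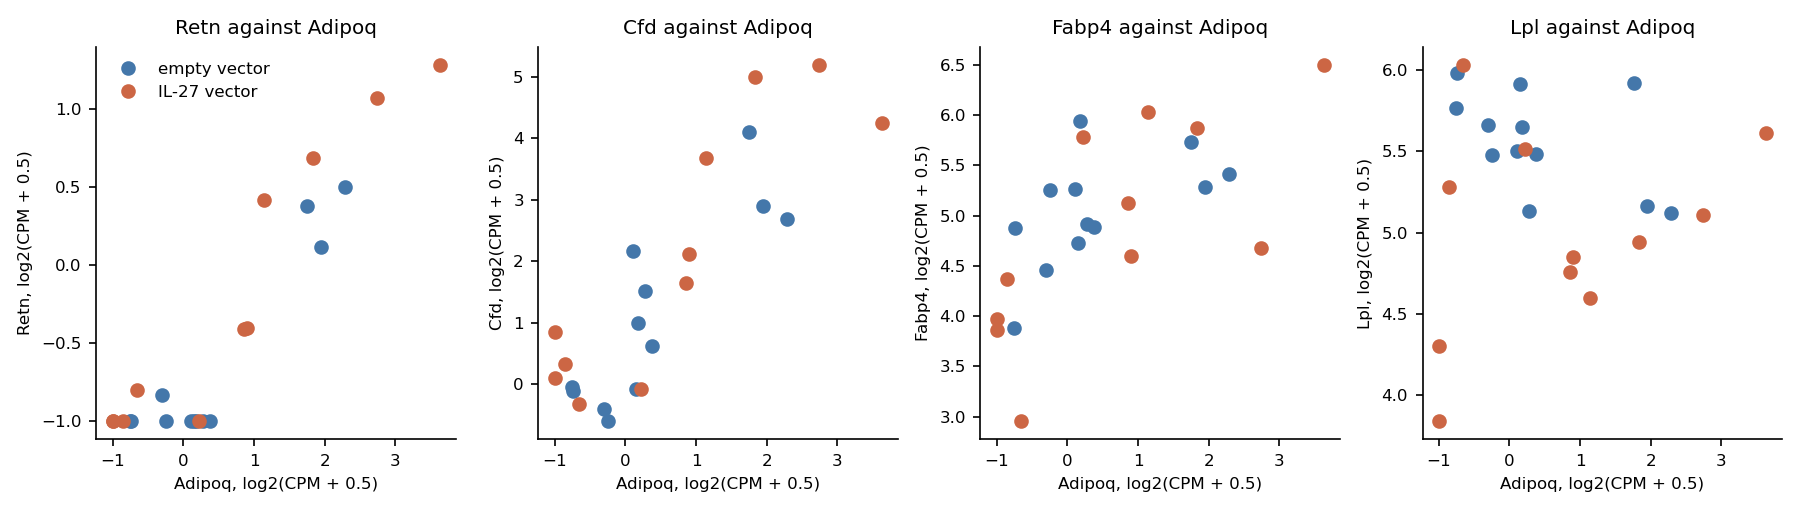
Retn, Cfd, Fabp4 and Lpl plotted against Adipoq, all as log2 of CPM + 0.5, with 1 point per library coloured by vector. Retn and Cfd rise with Adipoq (r = 0.92 and 0.86 over 23 libraries) and Lpl does not (r = 0.01); libraries with 0 counts lie at -1.

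Across the 23 libraries Adipoq, Retn, Plin1 and Cidec varied together, and Lep followed Plin1, Cidec and Retn mainly through few libraries. As a description over libraries that share sets and depth, log2 levels of Adipoq correlated with those of Retn at r = 0.92 (rho = 0.81), Cfd at 0.86 (rho = 0.79), Plin1 at 0.83 (rho = 0.79), Cidec at 0.82 (rho = 0.80), Plin4 at 0.69, Fabp4 at 0.66 and Lep at 0.64. Without the 2 libraries farthest from the Adipoq median these were 0.87 for Retn, 0.83 for Cfd, 0.76 for Plin1, 0.76 for Cidec and 0.62 for Lep. Lep correlated with Plin1 at 0.72, Cidec at 0.78 and Retn at 0.57, with rho of 0.46, 0.47 and 0.48, and without the 2 farthest libraries at 0.37, 0.31 and 0.32. Within set A (n = 9) Adipoq correlated with Cfd at 0.86 and Retn at 0.83, and within set C (n = 8) at 0.94 and 0.96. Within set A the rank correlation of Retn was only 0.18, since 7 of its 9 libraries had no Retn counts. Lpl did not follow: its correlation with Adipoq was 0.01 over all libraries, 0.23 within set A and 0.51 within set C.

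Outside the 9 genes, the gene whose levels were most like those of Adipoq was Hp, haptoglobin, at r = 0.84 over 23 libraries (0.88 without the 2 farthest), among 13727 genes with a mean of at least 1 CPM. Myh11 and Tagln, contractile genes of smooth muscle, and Aoc3, an amine oxidase, followed at 0.81, 0.77 and 0.79. Cfd was also most like Hp, at 0.85, then Lrg1 at 0.83. Fabp4 was most like Emcn at 0.85 and Gpihbp1, the capillary protein that holds lipoprotein lipase, at 0.81. Plin4 was most like Unc13b at 0.77, and Lpl most like Igf1 at 0.64. The highest value for Cidec, Hist1h1e at 0.76, fell to 0.24 without 2 libraries.

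**Figure D5:**
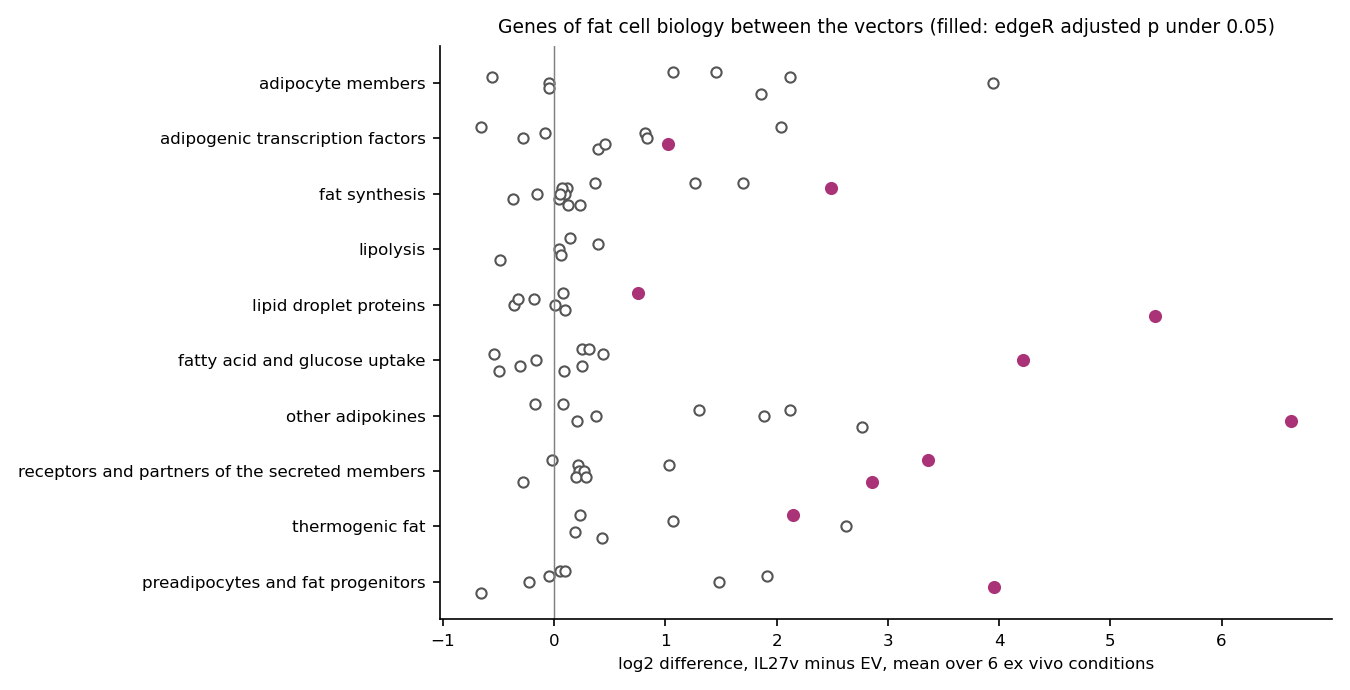
Log2 difference, IL27v minus EV, of 86 of the 95 tested genes of fat cell biology, grouped by role; each point is 1 gene, filled where the edgeR adjusted p is under 0.05. Genes with no usable test because of groups at 0 are not drawn. Filled points number 10, all above 0, and none is an adipocyte gene of the first row.

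The wider fat program was covered by further lists, read beside the 2.95% of all genes called between the vectors. Of 9 adipogenic transcription factors 1 rose under IL27v: Cebpd, an early factor of fat cell formation, went from 6.13 ± 4.25 CPM (SD, n = 12) to 14.5 ± 13.7 (n = 11), a log2 difference of 1.03 ± 0.21 (edgeR adjusted p = 0.013). Pparg, which encodes the main fat cell factor, was at 5.70 ± 1.15 CPM under EV and 3.73 ± 1.45 under IL27v, a difference of -0.66 ± 0.24 that did not pass (adjusted p = 0.17). Of 14 genes of fat synthesis 1 rose, Gpd1, which makes glycerol phosphate, by 2.49 ± 0.32 (adjusted p = 0.0012; 0.718 to 3.13 CPM). None of 8 lipolysis genes was called. Of 10 further droplet genes Fitm1 and Fitm2 rose, of 11 uptake genes the insulin-responsive glucose transporter Slc2a4 (4.22 ± 0.78, adjusted p = 0.0081), of 10 other adipokines Retnla, of 6 thermogenic genes tested Dio2 and of 8 preadipocyte genes Dpp4. Fitm1, Slc2a4, Retnla and Dpp4 lay at mean levels of 0.375 to 2.70 CPM under IL27v. Gpd1, Slc2a4, Fitm1 and Dio2 are also genes of muscle, and all 13 skeletal muscle markers rose under IL27v, where they summed to 28.7 to 974 CPM against 1.27 to 562 under EV. Of 11 keratinocyte markers 7 rose, with sums of 10.96 to 5152 CPM under IL27v and 74.3 to 1875 under EV, and of 6 erythroid markers 4 rose, with sums of 21.2 to 1576 CPM and 10.4 to 82.6. Of 5 sebaceous gland markers 2 rose and no other had a difference above 0, with a median log2 difference of -0.05. Their sums were 105.8 to 315.8 CPM under IL27v and 67.6 to 252.6 under EV. The part of muscle, skin or blood RNA in these values was not tested.

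The complement partners of adipsin rose as well. Among 10 receptors and partners of the secreted proteins, C3, the component whose cleavage products adipsin helps to make, rose from 11.96 ± 11.3 to 101.9 ± 128.0 CPM, by 2.86 ± 0.55 on the log2 scale (edgeR adjusted p = 0.0086). Cfb, factor B, which is the substrate of adipsin, rose from 11.2 ± 15.3 to 91.5 ± 135.2 CPM, by 3.36 ± 0.64 (adjusted p = 0.0086). The leptin receptor gene Lepr differed by 0.20 ± 0.70 and the adiponectin receptor gene Adipor1 by -0.02 ± 0.10 (adjusted p = 1.0 each). Cebpd, Gpd1, Fitm2, Slc2a4, C3 and Cfb were called in each of the 23 fits that left out 1 library, Fitm1 in 22 (not without IL27v docetaxel 2), Dpp4 in 12, Retnla in 5 and Dio2 in 3. None of these calls between the vectors held with the sets as a term.

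With docetaxel, 3 of 9 adipogenic factors rose against media, beside 1.76% of all genes called higher: Cebpd by 2.42 ± 0.37 (edgeR adjusted p = 0.0068), Cebpb by 2.72 ± 0.55 (adjusted p = 0.020) and Srebf1, a factor of lipid synthesis, by 1.87 ± 0.33 (adjusted p = 0.013). Cebpd was at 9.98 and 18.4 CPM in EV docetaxel and 51.9 and 22.8 in IL27v docetaxel, above all media libraries, which lay at 2.72 to 5.55 CPM. Fasn, fatty acid synthase, rose by 1.18 ± 0.27 (adjusted p = 0.035) and Lipe by 1.37 ± 0.33 (adjusted p = 0.046). Each of these calls was lost without EV media 1, with an adjusted p of 0.10 for Cebpd and 0.18 for Cebpb. Cebpb also lost its call without EV media 2, IL27v media 1 or IL27v docetaxel 1, Srebf1 without those or EV docetaxel 2, Fasn in 8 of 23 such fits and Lipe in 18. Within EV alone none of the 5 was called: Cebpd differed by 1.45 ± 0.50 and Lipe by 0.24 ± 0.47.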

How the data were processed

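Poly(A) RNA of 23 tumour libraries was sequenced from stranded libraries in paired ends, and RNA integrity was required to reach 8, per the labels' protocols. HISAT2, StringTie, DESeq2 and cutadapt are named with GRCm38, per the submitters' processing notes, and their versions are not given in the sources. The authors deposited estimated counts per gene, which are whole numbers, so rounding changed nothing; 143 genes carry an identical nonzero value throughout. Whether counting used strand is not stated. Groups follow the titles, since 3 descriptions repeat 1 library name. Nothing says that replicates are separate animals, so the p-values cover the spread of these samples alone, and that spread may be technical. Symbols matched 55141 of 55401 identifiers, and coordinates are GENCODE GRCm38.

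edgeR 4.0.16 (R 4.3.3) fitted all 24440 genes passing filterByExpr in 1 cell-means model of the 12 groups, with TMM scaling, the quasi-likelihood test and Benjamini-Hochberg adjustment over all genes, called under 0.05. The vector effect is the mean over 6 conditions, and each agent minus media the mean over both vectors. SE is the absolute log2 difference divided by the square root of F. The fit was tested on simulated data. A fold against a library at 0 uses a floor of 3 counts. Correlations use log2(CPM + 0.5). Libraries with 5 CPM or more of Ngp form set B, those without it that reach 100 CPM over 13 muscle genes set C, and 1 library with over 20% of counts in 1 gene stands alone; all these were chosen from the data.

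The 9 genes, the 21 lists with 170 genes and the tests were chosen with earlier results of these data known. All 9 genes are named, with up to 3 genes per further list by smallest vector p, any list gene called, and the 5 genes most like each adipocyte gene with a mean of at least 1 CPM. Pparg, Cebpa, Pck1, Ucp1, Lepr, Adipor1 and Krt8 were named after their values were seen. Alternatives were DESeq2 1.42.0, RLE scaling, no filter, a minimum of 1 CPM in 4 libraries, the replicate block, the additive model with and without the sets, counts divided by 4 and leaving out each library. Contrasts within EV were added after seeing the data.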

Additional observations from a re-analysis of the deposited data

How the results depend on the processing

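The number of genes called moved with the tool and with the filter. DESeq2 and a fit with no low count filter gave 1962 and 1631 genes between the vectors, 295 and 948 for cabozantinib, 1693 and 1843 for docetaxel, 105 and 506 for anti-PD-L1, 63 and 353 for cabozantinib + IL-27, 619 and 1093 for IL-27, and 635 and 1479 for the interaction. Of the 9 adipocyte genes DESeq2 called 1, 1, 2, 0, 1, 1 and 0 in these comparisons, and no filter called 5, 1, 4, 0, 4, 3 and 5. The fit with no filter tested more than the 24440 genes of the main fit. Its calls have no share over all genes beside them and cannot be read as a result about the 9. The cause was not tested. RLE scaling, 1 CPM in 4 libraries and counts divided by 4 called none of the 9. The additive model called 0 genes for docetaxel and 0 for cabozantinib + IL-27, and with the sets as a term 0 genes between the vectors, 0 for docetaxel and 0 for cabozantinib + IL-27. With EV libraries alone docetaxel called 0. Over 55 pairs of groups the deviations of same-numbered libraries correlated at -0.67 to 0.52, with a median of 0.012, and 13 were over 0.1. Whether replicate numbers pair the libraries cannot be settled from these values. The replicates of EV anti-PD-L1 and of IL27v docetaxel, for example, lie in different sets. With the replicate block 289 genes were called for docetaxel, and none of the 9 adipocyte genes was called in any comparison. Signs turned for Fabp4 with the replicate block (0.014), for Plin4 in the additive model (0.088), and with the sets as a term for Cidec (-1.33), Cfd (-0.36), Lpl (0.41), Cebpd (-0.29), Gpd1 (-0.18) and Slc2a4 (-0.60), none called. Of 15 calls of other fat genes, 12 held with the replicate block, 8 in the additive model and 0 with the sets as a term, and all 15 held with RLE scaling, DESeq2 and no filter; 0 of 5 docetaxel calls held within EV, a setting added after seeing the data. Leaving out each library in turn gave 394 to 1244 genes between the vectors and 0 to 1251 for docetaxel, 0 to 346 for cabozantinib, 0 to 101 for anti-PD-L1, 1 to 14 for cabozantinib + IL-27, 0 to 3821 for IL-27 and 0 to 86 for the interaction, and 0 to 1 of the 9 adipocyte genes. Docetaxel called 0 genes without EV media 1 and 1251 without IL27v media 2. The vector difference then ran from -0.72 to 1.37 for Adipoq, from -0.32 to 0.29 for Plin4 and from -0.44 to 0.094 for Fabp4. Cidec with docetaxel ran from -0.25 to 7.26 and Adipoq with cabozantinib + IL-27 from -1.82 to 4.31. The low ends for Adipoq and both ends for Cidec came from fits that left a group at 0 counts, where the value depends on the prior count. Over 20 results of the 9 genes, 592 of 617 values under alternatives kept their sign. These results were the vector differences with a usable test and the agent differences with an edgeR unadjusted p under 0.05 in the main fit. Most alternatives left out 1 of the 23 libraries and so shared nearly all the data. Kept signs were therefore likely from the choice of results and are no independent support. Scaling by library total in place of TMM kept 107 of 108 group levels within a limit. That limit was 1 SD in groups with replicates, and the exact binomial interval of the count in IL27v IL-27, with 1 library. The exception was Lpl in EV IL-27, whose replicates lay close together, at 58.1 CPM. Lep, Retn, Cidec and Plin1 were at 0 in 14, 12, 6 and 5 libraries. Over the 23 libraries 3 counts corresponded to 0.0347 to 0.0828 CPM, and levels below that could not be told from 0. Whether depth accounts for these zeros was not tested.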
